A study of Mus musculus with 8 samples.

Results

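The comparison asked what BCAS adds to traumatic brain injury (TBI): 2 libraries of nuclei from mice that had both surgeries were set against 2 libraries from mice that had TBI alone, 4 of the 8 libraries of the series. The mice were male Swiss Webster, 10 weeks old, and a 2 mm cube of forebrain beside the lesion was frozen and used for single-nucleus RNA sequencing. The labels give BCAS only as an abbreviation, the series title ties it to reduced blood flow to the brain, and neither gives the time between surgery and collection. The other 4 libraries were from control mice and from mice with BCAS alone, 2 each, and entered the fit that estimated the spread. Whether a library came from 1 animal is not stated beyond the words for a biological replicate, so p-values measure only the spread between these libraries.

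Barcodes were kept with at least 500 unique molecular identifiers (UMIs, 1 per captured RNA molecule), at least 300 genes and at most 5% of UMIs from mitochondrial genes. The 4 libraries held 24484 such nuclei of the 48468 in all 8. Nuclei with at least 3 UMIs of Snap25, Rbfox3 and Syt1 together were taken as neurons, and the remainder are called other nuclei. Raw counts were summed per library in each compartment. The libraries of each group differ in depth, so the shallower one of each group was paired with the other shallower one. The lower-depth pair was BCAS+TBI 2 (31397920 UMIs in all barcodes) against TBI 1 (33363564 UMIs), and the higher-depth pair was BCAS+TBI 1 (42651388 UMIs) against TBI 2 (50626451 UMIs). Values are CPM, edgeR's TMM-scaled counts relative to the total UMIs of the compartment, given with the lower-depth library of a group first. Summed levels of a gene list, and all values within nuclei gated to a cell class by markers, are CPM without TMM scaling. A pair's difference is the log2 ratio of CPM with 5 CPM added to both, which understates the change of low genes, and fold changes with a standard error (SE) are log2 values of the edgeR model.

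Brain tissue beside an injury holds neurons and several kinds of support cell that respond in different ways. Endothelial cells line the vessels and form the blood-brain barrier, microglia are the resident immune cells, astrocytes take up glutamate and become reactive after damage, and oligodendrocytes make myelin. Low blood flow is known to stress the vessel wall and the white matter. Ependymal cells, whose motile cilia move cerebrospinal fluid, and the choroid plexus, which secretes it, lie along the ventricles and enter a dissected cube only where it reaches them.

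The libraries differed before any grouping. The neuron share of kept nuclei was 66.2% in TBI 1 and 83.4% in TBI 2, against 73.0% in BCAS+TBI 2 and 75.0% in BCAS+TBI 1. The TBI libraries therefore lay on both sides of the BCAS+TBI libraries, with means of 74.8% ± 12.1 (SD, n = 2) and 74.0% ± 1.47 (SD, n = 2). The difference was 6.72 percentage points in the lower-depth pair and -8.36 in the higher-depth pair, and the exact two-sided permutation test gave p = 1, where the smallest p that 2 against 2 libraries allow is 0.333. Mitochondrial genes held 0.683% and 0.360% of the neuron UMIs in the TBI libraries and 1.29% and 0.398% in the BCAS+TBI libraries, so BCAS+TBI 2 stood highest. Among other nuclei, the summed level of 8 neuron markers was 380 and 800 CPM in the TBI libraries against 462 and 481 CPM with BCAS+TBI, so TBI 2 carried the most neuronal RNA outside the neuron gate. The median depth of other nuclei was 1615 and 1440 UMIs with TBI and 1345 and 1585.5 UMIs with BCAS+TBI. Any 2 of the 8 libraries shared 4 to 15 barcodes.

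No gene in either compartment passed an adjusted p of 0.05 between BCAS+TBI and TBI. In neurons 0 of 23696 genes (0%) and in other nuclei 0 of 16229 genes (0%) passed edgeR's quasi-likelihood test with Benjamini-Hochberg adjustment over both compartments, with a smallest adjusted p of 0.858 in neurons and 1.00 in other nuclei. At an unadjusted p under 0.05 there were 1084 genes in neurons and 595 in other nuclei, and DESeq2 passed 2 genes in neurons and 0 in other nuclei. Without the filter on low counts edgeR passed 8 genes in neurons and 47 in other nuclei, 12 higher and 35 lower. Among the lower ones were genes named by rule below: Cxcl12 (adjusted p = 0.00113), Sema3c (0.00302), Xdh (0.00113), Aldh1a2 (0.00382), Hydin (0.0186) and Sspo (3.475e-12). The same setting passed Tmem181c-ps (log2 fold change -6.19, adjusted p = 1.141e-18) and Rps24-ps3 (7.40, 0.00113). Why this setting passed more genes was not tested. Leaving out TBI 1 passed 146 genes in neurons and 6 in other nuclei, leaving out TBI 2 passed 3 and 0, and leaving out BCAS+TBI 1 passed 1 and 1. All results below are therefore described by their values in each library and by whether both pairs have the same sign.

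The pairs had little in common across the genome. In neurons 19.9% of genes were higher with BCAS+TBI in both pairs and 27.9% were lower in both, and in other nuclei these shares were 23.7% and 22.2%. Across genes, the Pearson correlation of the pairs was -0.03 in neurons and -0.13 in other nuclei, where genes of a pair share their libraries and depth and are not independent replicates. A gene whose BCAS+TBI libraries both lay above both TBI libraries was found in 5.58% of cases in neurons and 8.53% in other nuclei, and one with both below in 6.06% and 8.93%. A difference of at least 1.5-fold in the same direction in both pairs was found for 8 genes in neurons, 4 higher (0.0169%) and 4 lower (0.0169%), and for 55 genes in other nuclei, 12 higher (0.0739%) and 43 lower (0.265%). The counts of genes with the same sign depend on which libraries are paired, and pairing by the replicate number of the labels gave 32 genes at 1.5-fold in other nuclei. The gene lists below were chosen with earlier results of these data known. Members of a list come from the same libraries and are not independent, so list counts beside these shares are descriptions only.

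**Figure D1:**
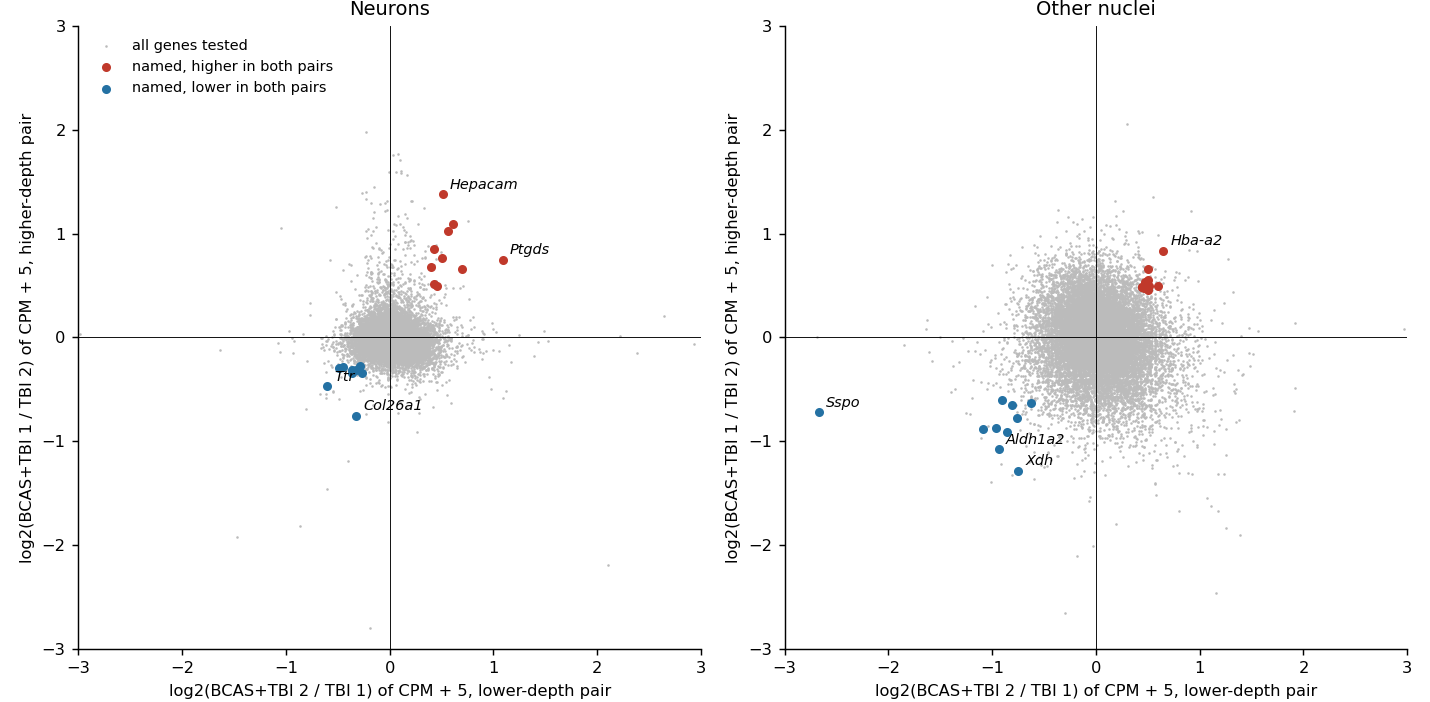
Each point is a gene, placed by its log2 ratio of CPM + 5 between BCAS+TBI and TBI in the lower-depth pair (horizontal) and the higher-depth pair (vertical), for neurons (left) and other nuclei (right). Red and blue points are the named genes with the same sign in both pairs; the grey cloud is round or tilted downwards, as the correlations of -0.03 and -0.13 describe, and Sspo lies far to the left in other nuclei.

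In other nuclei, the genes with the largest differences in both pairs were lower with BCAS+TBI. The 10 named by rule were Aldh1a2, Hydin, Cxcl12, Sema3c, Zfp951, Xdh, Sspo, Parp9, Tstd2 and Sp100, and for 9 of them both BCAS+TBI libraries lay below both TBI libraries, Hydin being the exception. The rule chose these genes for their difference in the same 4 libraries, so their separation is a description only, as it is for all genes named by this rule. Cxcl12 (chromosome 6, 117168535 to 117181367, GRCm38) encodes a chemokine that vessels and meninges release to guide cells through CXCR4. It stood at 175 and 168 CPM with TBI and at 87.8 and 89.5 CPM with BCAS+TBI, a log2 fold change of -0.96 (SE 0.18, edgeR adjusted p = 1.00). The TBI libraries were the higher ones, and with all deposited barcodes the log2 fold change was -0.45. Sema3c (chromosome 5, 17574281 to 17730268), a secreted guidance protein, stood at 96.1 and 154 CPM with TBI against 50.9 and 79.3 CPM with BCAS+TBI, a log2 fold change of -0.95 (SE 0.18). Xdh (chromosome 17, 73883895 to 73950196), the purine-degrading enzyme xanthine dehydrogenase, stood at 26.4 and 62.9 CPM against 13.7 and 22.9 CPM, a log2 fold change of -1.26 (SE 0.24). The plot of named genes in other nuclei shows these gaps library by library.

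**Figure D2:**
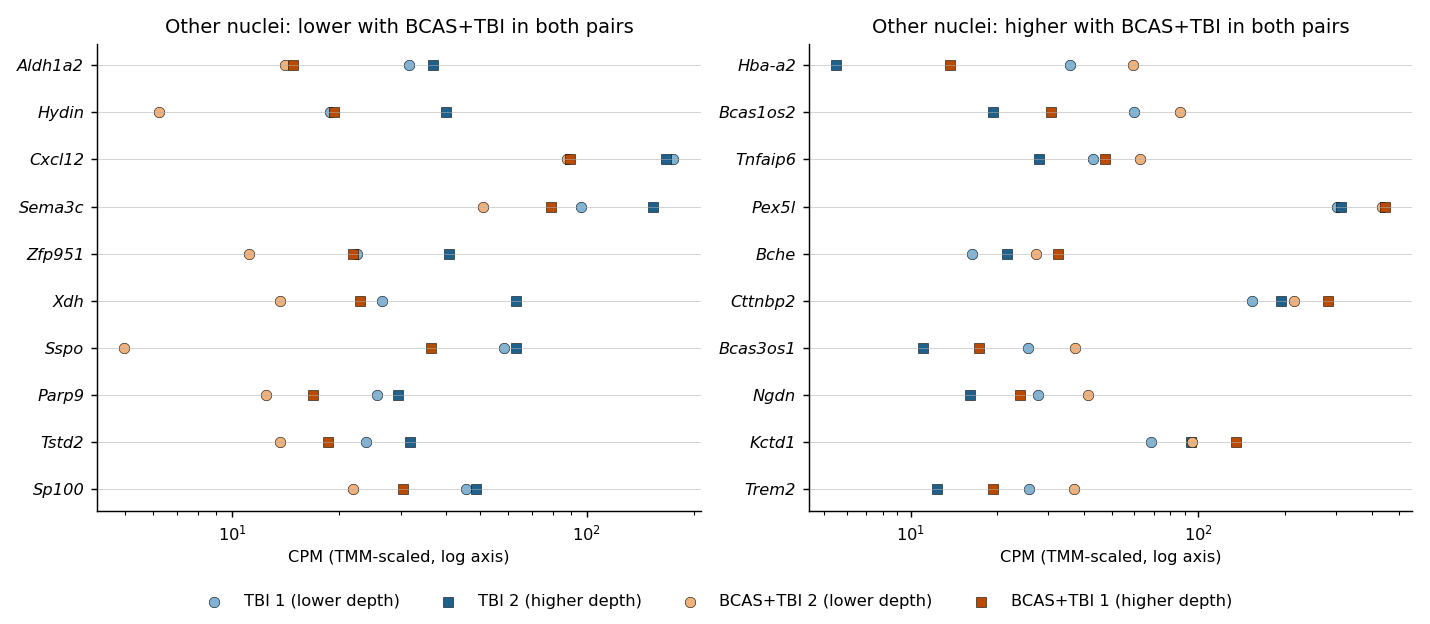
TMM-scaled CPM on a log axis for the 10 genes per direction with the largest smaller-of-both-pairs difference in other nuclei; blue points are the TBI libraries, orange points the BCAS+TBI libraries, circles the lower-depth and squares the higher-depth library. On the left, Aldh1a2 and Cxcl12 have both orange points well below both blue points. On the right, for Hba-a2, Bcas1os2 and Trem2 the libraries of a group lie farther apart than those of a pair.

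The nuclei that carried these genes could be followed by gating other nuclei to a cell class from marker UMIs. Nuclei gated as endothelial were 2.63% and 2.92% of kept nuclei with TBI and 1.44% and 2.43% with BCAS+TBI (141, 222, 79 and 146 nuclei), lower in both pairs. The Wilson 95% intervals did not overlap in the lower-depth pair (2.23% to 3.09% and 1.16% to 1.79%) and overlapped in the higher-depth pair (2.56% to 3.32% and 2.07% to 2.85%). These intervals cover counting error only and not the spread between libraries. Those of the BCAS+TBI libraries did not overlap with each other either. In the nuclei gated as endothelial, before TMM scaling, Cxcl12 stood at 1423 and 882 CPM with TBI and at 830 and 640 CPM with BCAS+TBI. Sema3c stood there at 760 and 895 CPM against 386 and 613 CPM, and Xdh at 187 and 364 CPM against 123 and 198 CPM. All 3 genes were lower in both pairs among the gated nuclei. The rule chose them from sums that include these nuclei, so this is a description only. Sp100, an interferon-responsive nuclear body protein, was lower in the gated nuclei of the lower-depth pair only, at 346 against 171 CPM, with 251 against 252 CPM in the higher-depth pair. Fewer cells of a type and less RNA per cell cannot be told apart in the sums over all other nuclei.

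The list of 10 blood-brain barrier genes had 9 members lower in both pairs, against 22.2% of all genes tested, with a median log2 fold change of -0.38 beside 0.01 over all genes tested. Flt1, a VEGF receptor, stood at 625 and 878 CPM with TBI and at 374 and 707 CPM with BCAS+TBI. Slc2a1, the glucose transporter of the barrier, stood at 187 and 181 CPM against 142 and 138 CPM, and Pecam1, an adhesion molecule of endothelial junctions, at 80.3 and 97.4 CPM against 54.7 and 70.8 CPM. For these last 2 genes, and for none of the other 8, the groups did not overlap, where 8.93% of all genes tested lay lower without overlap. Tjp1, which links tight junctions to the cytoskeleton, was the member of opposite sign, at 473 and 617 CPM against 477 and 608 CPM. Within the nuclei gated as endothelial, 0 of the 10 were lower in both pairs, against 26.3% of genes with at least 10 UMIs there, and only Cldn5, a tight junction claudin, was higher in both, at 3102 and 1072 CPM against 3123 and 1555 CPM. Of the 10 genes, 5 (Flt1, Cldn5, Slco1a4, Abcb1a and Pecam1) are also among the gate's markers, so their level within gated nuclei is partly set by the gate. Pairing by replicate number left 2 of the 10 lower in both pairs.

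Of 8 genes of pericytes and smooth muscle, the contractile cells around vessels, 3 were lower in both pairs and 5 had opposite signs. Of all genes tested in other nuclei, 22.2% were lower in both pairs and 23.7% higher. Rgs5, a regulator of G-protein signalling in pericytes, stood at 329 and 314 CPM with TBI against 159 and 259 CPM, and Vtn, the matrix protein vitronectin, at 310 and 251 CPM against 242 and 194 CPM. Both genes had groups that did not overlap, where 8.93% of all genes tested lay lower without overlap. Among 10 fibroblast and matrix genes, Col1a1, a fibrillar collagen, was higher in both pairs at 21.3 and 24.3 CPM against 36.0 and 25.01 CPM, while Fn1, Col4a1 and Col4a2 were lower in both. Aldh1a2 (chromosome 9, 71215789 to 71296243), the retinoic acid synthesis enzyme of the meninges, stood at 31.5 and 36.7 CPM with TBI and at 14.1 and 14.8 CPM with BCAS+TBI, from 34 to 112 UMIs per library. Its level in the 33 to 56 nuclei gated as fibroblasts was 593 and 129 CPM with TBI against 179 and 171 CPM, lower in the lower-depth pair only.

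Genes of motile cilia and of the ventricle lining were among those with the largest differences, and few nuclei carried them. Nuclei gated as ependymal numbered 10 and 14 with TBI and 1 and 7 with BCAS+TBI. Sspo (chromosome 6, 48448229 to 48501250), which encodes SCO-spondin of the subcommissural organ, stood at 58.4 and 62.9 CPM with TBI and at 4.97 and 36.3 CPM with BCAS+TBI. Without TBI the libraries of a group differed widely for Sspo, at 24.1 and 121 CPM in the control libraries and 43.4 and 75.1 CPM in the BCAS libraries. Its 12 UMIs in BCAS+TBI 2 lay in 12 nuclei, against 208 UMIs in 35 nuclei of TBI 1. Hydin, a component of the ciliary central apparatus, stood at 18.8 and 40.0 CPM against 6.21 and 19.4 CPM. Of 8 ependymal genes, Cfap299 was not among the symbols of the files, and of the other 7, which passed the filter on low counts, 4 were lower in both pairs (Tmem212, Dnah12, Dnah5 and Cfap44) and 3 had opposite signs. Of 8 choroid plexus genes 7 passed the filter, of which 6 were lower in both pairs. For both lists the share over all genes tested was 22.2%. Among the 6 were Htr2c, a serotonin receptor, at 632 and 779 CPM against 466 and 498 CPM, and Kl, klotho, a co-receptor for a phosphate-regulating hormone, at 33.4 and 41.8 CPM against 21.9 and 25.01 CPM. The summed level of the choroid plexus list was 1338 and 1143 CPM with TBI and 1069 and 750 CPM with BCAS+TBI. In the control libraries it was 1079 and 391 CPM, and in the BCAS libraries 795 and 797 CPM. Nuclei gated as choroid plexus were 1.02% and 0.315% of kept nuclei with TBI and 0.730% and 0.282% with BCAS+TBI. Within them Kl was lower in the lower-depth pair only (691 against 400 CPM, and 693 against 778 CPM), and the part of the dissection in these values was not tested.

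**Figure D3:**
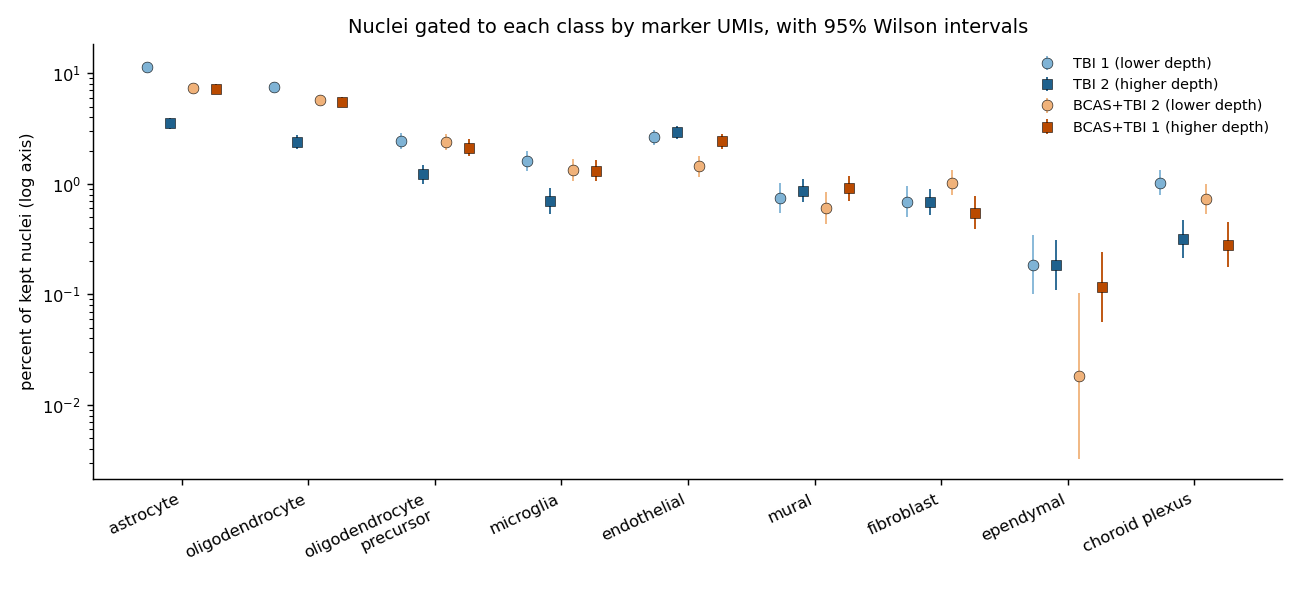
Percent of kept nuclei gated to each class by marker UMIs in the 4 libraries, on a log axis, with 95% Wilson intervals that cover counting error only. TBI 2 lies lowest for astrocytes, oligodendrocytes and microglia, while endothelial, ependymal and choroid plexus shares are lower with BCAS+TBI in both pairs.

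All 10 homeostatic microglia genes, those of the resting surveying state, were higher in both pairs, against 23.7% of all genes tested, with a median log2 fold change of 0.39. The 10 genes were measured in the same libraries and are not independent, so their count is a description only. P2ry12, the ADP receptor of microglial processes, stood at 78.1 and 38.1 CPM with TBI and at 99.0 and 52.5 CPM with BCAS+TBI. Csf1r, the survival receptor of microglia, stood at 71.3 and 43.2 CPM against 84.5 and 64.8 CPM, and Selplg, a selectin ligand, at 40.7 and 24.8 CPM against 55.9 and 40.5 CPM. For P2ry12, Csf1r and Selplg, TBI 2 was the lowest library and BCAS+TBI 2 the highest. The groups did not overlap only for P2ry13 and Sall1, where 8.53% of all genes tested lay higher without overlap. The same list had a median log2 difference of -0.12 between BCAS and control, comparisons that share no library with these. Pairing by replicate number left 2 of the 10 genes higher in both pairs.

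Nuclei gated as microglia were 1.62% and 0.696% of kept nuclei with TBI and 1.33% and 1.31% with BCAS+TBI, opposite in sign between the pairs, from 87, 53, 73 and 79 nuclei. As a share of other nuclei they were 4.799% and 4.20% against 4.93% and 5.26%. Within these nuclei 8 of the 10 homeostatic genes were higher in both pairs, P2ry12 at 1203 and 661 CPM against 1251 and 914 CPM, where 24.9% of genes with at least 10 UMIs were. The gate uses 5 of the 10 genes, and of the other 5, 3 were higher in both pairs. Of 14 genes of activated microglia 11 passed the filter, of which 5 were higher in both pairs, 2 lower and 4 opposite. Over all genes tested in other nuclei, 23.7% were higher in both pairs and 22.2% lower. Trem2 (chromosome 17, 48346401 to 48354147), a lipid receptor that drives the disease-associated state, stood at 25.8 and 12.4 CPM with TBI against 36.9 and 19.4 CPM. Cd68, a lysosomal protein of phagocytes, stood at 10.1 and 2.30 CPM against 23.2 and 8.10 CPM, from 36, 5, 56 and 23 UMIs, a log2 fold change of 1.32 (SE 0.32). For both genes TBI 1 lay above BCAS+TBI 1, so the groups overlapped. Lpl, a lipoprotein lipase, was lower, at 8.99 and 12.9 CPM against 5.798 and 5.64 CPM, and of 8 complement genes C1qa and C3ar1 were higher in both pairs and C3 was lower.

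Myelin genes were higher with BCAS+TBI in 8 of 10 cases in both pairs, against 23.7% of all genes tested, but by unequal amounts. Cldn11 and Cnp were of opposite sign. The median log2 difference was 0.14 in the lower-depth pair and 0.73 in the higher-depth pair. Mbp, a main protein of compact myelin, stood at 886 and 592 CPM with TBI against 902 and 989 CPM. Nuclei gated as oligodendrocytes were 7.56% and 2.40% of kept nuclei with TBI against 5.69% and 5.48% with BCAS+TBI, with TBI 2 lowest. Within them 8 of the 10 genes were higher in both pairs, against 22.4% of genes with at least 10 UMIs, and of the 5 that the gate does not use 3 were. Among the gate's own markers was Mog, a surface protein of myelin, at 1286 and 843 CPM against 1488 and 1008 CPM. Tnfaip6 (chromosome 2, 52038009 to 52056686), a hyaluronan-binding protein induced by inflammation, stood at 43.0 and 28.02 CPM over all other nuclei against 62.9 and 47.2 CPM. It was highest in the nuclei gated as oligodendrocytes, at 175 and 137 CPM with TBI and 231 and 203 CPM with BCAS+TBI. Of 10 genes of oligodendrocyte precursors, 5 were higher in both pairs, among them Pdgfra, their growth factor receptor, at 146 and 137 CPM against 164 and 178 CPM, and 1, the proteoglycan gene Cspg4, was lower.

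The remaining genes named as higher in other nuclei were Hba-a2, Bcas1os2, Pex5l, Bche, Cttnbp2, Bcas3os1, Ngdn and Kctd1. Pex5l, a regulator of HCN channels, stood at 303 and 314 CPM with TBI against 434 and 445 CPM, so the groups did not overlap. Without TBI it stood at 384 and 354 CPM in the control libraries and at 277 and 542 CPM in the BCAS libraries. The BCAS libraries alone thus spanned a wider range than these 4. Cttnbp2, which binds cortactin, stood at 154 and 194 CPM with TBI against 216 and 283 CPM with BCAS+TBI. Bche, butyrylcholinesterase, stood at 16.3 and 21.6 CPM against 27.3 and 32.4 CPM. Hba-a2, an alpha globin whose near-identical copy Hba-a1 makes its count uncertain, stood at 36.0 and 5.51 CPM against 59.2 and 13.7 CPM. Of its 128 UMIs in TBI 1, 62 lay in 1 nucleus, and without BCAS+TBI 2 the sign of its log2 fold change turned, to -0.55. Bcas1os2 and Bcas3os1 are antisense to other genes, and the counting's use of strand is not given in the sources used here, so their reads cannot be told apart from those of the partner gene.

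Astrocyte genes had no common direction. Of 10 homeostatic astrocyte genes, 2 were higher in both pairs and 8 had opposite signs, with a median of -0.33 in the lower-depth pair and 0.46 in the higher-depth pair. Slc1a2, the main glutamate transporter, stood at 2849 and 2046 CPM with TBI against 2142 and 2881 CPM. Gfap, the filament of reactive astrocytes, stood at 233 and 60.6 CPM against 110 and 80.7 CPM, so TBI 1 stood apart. Of 12 reactive astrocyte genes 10 passed the filter, of which 5 were lower in both pairs and 1 higher, against 22.2% and 23.7% of all genes tested. Aspg, an asparaginase induced in reactive astrocytes, stood at 34.3 and 17.5 CPM with TBI against 9.94 and 10.6 CPM, and within nuclei gated as astrocytes at 62.6 and 39.4 CPM against 20.04 and 25.4 CPM. Vim and Osmr, an intermediate filament and the oncostatin M receptor, were lower in both pairs as well, at 68.3 and 41.3 against 54.3 and 33.8 CPM for Vim. Lcn2, lipocalin 2, was the member higher in both, at 4.21 and 2.76 CPM against 29.8 and 3.52 CPM, and 44 of its 72 UMIs in BCAS+TBI 2 lay in 1 nucleus.

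Of 12 genes of interferon response and MHC class I, 8 were lower in both pairs, against 22.2% of all genes tested, 2 higher and 2 opposite. The median log2 fold change was -0.32. Ifit3, an antiviral effector, stood at 5.34 and 4.13 CPM with TBI against 3.31 and 1.06 CPM, so the groups did not overlap. Parp9, an ADP-ribosyltransferase partner induced by interferon, stood at 25.6 and 29.4 CPM against 12.4 and 16.9 CPM. B2m, the light chain of MHC class I, stood at 122 and 53.7 CPM against 118 and 33.8 CPM, where the libraries of a group differed more than those of a pair. Within the 79 to 222 nuclei gated as endothelial, 8 of the 12 genes were higher in both pairs and 1 lower, against 23.6% and 26.3% of genes with at least 10 UMIs there, with B2m at 464 and 135 CPM with TBI against 814 and 171 CPM.

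**Figure D4:**
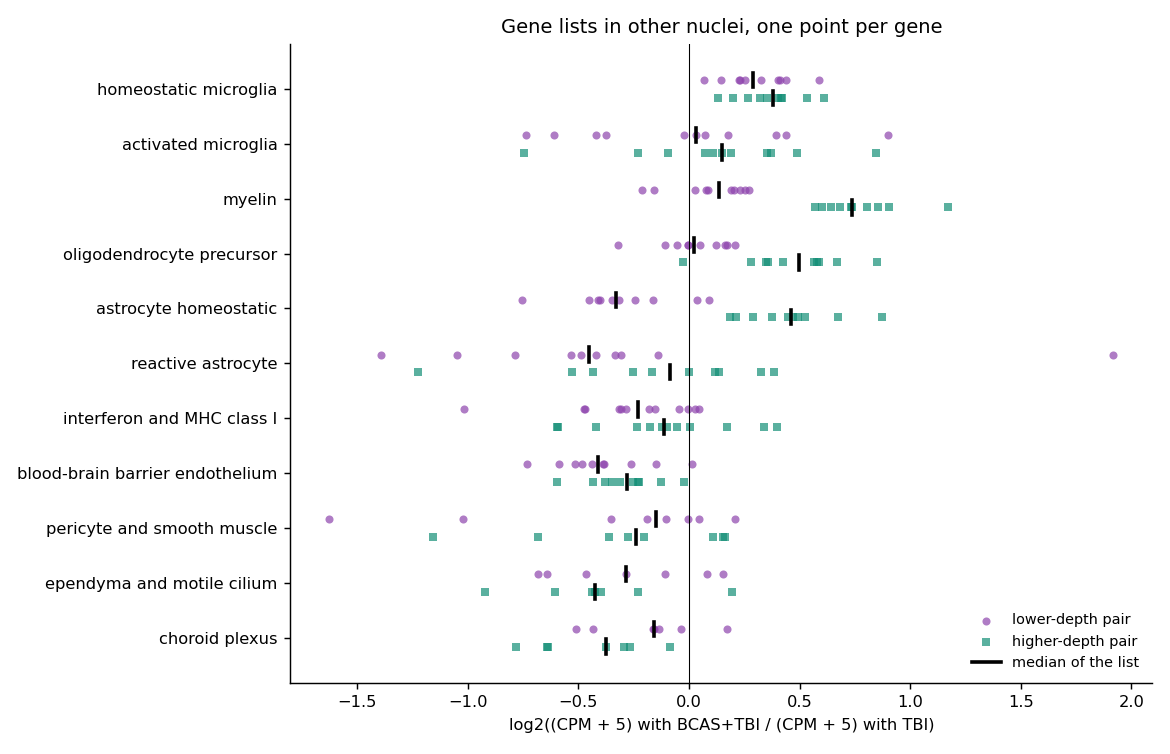
Log2 ratios of CPM + 5 between BCAS+TBI and TBI for the members of 11 gene lists in other nuclei, with circles for the lower-depth pair, squares for the higher-depth pair and a bar at each median. The homeostatic microglia points all lie to the right of 0 and 9 of 10 blood-brain barrier genes lie to the left of 0 in both pairs, while 8 of 10 homeostatic astrocyte genes lie on opposite sides of 0 in the 2 pairs.

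Heat shock, oxidative phosphorylation and hypoxia genes gave no common direction in other nuclei. Of 11 heat shock genes 9 passed the filter, of which 2 were lower in both pairs and 7 opposite, and of 18 nuclear-encoded genes of oxidative phosphorylation, 2 were higher, 2 lower and 14 opposite. Of 16 hypoxia and glycolysis genes, 4 were higher in both pairs, 2 lower and 10 opposite. Over all genes tested in other nuclei, 23.7% were higher in both pairs and 22.2% lower. P4ha1, a collagen prolyl hydroxylase induced by low oxygen, stood at 121 and 107 CPM with TBI against 137 and 146 CPM, while Vegfa, the vascular growth factor, had opposite signs at 154 and 82.2 CPM against 115 and 144 CPM. In neurons P4ha1 was higher in both pairs too, at 77.5 and 90.2 CPM against 94.0 and 92.6 CPM, and all 11 heat shock genes had opposite signs in the pairs. Of 10 genes that glucocorticoids, the stress hormones, switch on, 3 were higher in both pairs in other nuclei and 7 opposite. Among them Per1, a clock gene, stood at 21.9 and 37.2 CPM with TBI against 44.7 and 44.4 CPM, so the groups did not overlap. In neurons Tsc22d3, which encodes the glucocorticoid-induced leucine zipper, stood at 9.48 and 6.50 CPM against 13.2 and 10.9 CPM, while Fkbp5, a co-chaperone of the receptor, had opposite signs at 36.0 and 56.7 CPM against 57.8 and 48.4 CPM.

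Of 4 haemoglobin genes, which mark red blood cells, 3 were higher in both pairs in other nuclei, against 23.7% of all genes tested. Hbb-bs was opposite, at 3069 and 346 CPM with TBI against 2988 and 535 CPM. The lower-depth libraries of both groups stood far above the higher-depth ones. All 8 nuclear long noncoding RNAs and all 8 neuron markers had opposite signs in the pairs of other nuclei.

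In neurons, the 10 genes named as higher were Ptgds, Apoe, Mertk, Slc1a3, Hepacam, Gpc5, Snx10, Gja1, Maml2 and Cd9. Most are known for expression in glia: Slc1a3 is a glutamate transporter of astrocytes, Gja1 their gap junction protein, Hepacam an astrocyte adhesion molecule, Mertk a phagocytic receptor and Apoe the main lipid carrier of the brain. Slc1a3 (chromosome 15, 8634124 to 8710764) stood at 63.1 and 36.4 CPM with TBI against 95.7 and 79.3 CPM, a log2 fold change of 0.84 (SE 0.20) that was 0.33 after thinning nuclei to 1500 UMIs and 1.28 without TBI 1. Gpc5 (chromosome 14, 115092215 to 116525179), a heparan sulfate proteoglycan, stood at 272 and 320 CPM against 388 and 546 CPM, a log2 fold change of 0.64 (SE 0.11). Gpc5 had an edgeR adjusted p of 1.00, and passed under DESeq2 (adjusted p = 0.0378) and under edgeR without the filter on low counts (0.0132) and without TBI 1 (0.0389). For both genes, and for Mertk, Hepacam, Snx10 and Maml2, the groups did not overlap.

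Ptgds (chromosome 2, 25466709 to 25470046), prostaglandin D synthase, stood at 280 and 56.3 CPM with TBI against 602 and 97.9 CPM with BCAS+TBI, from 8040, 2434, 15953 and 3605 UMIs. The lower-depth library of each group was the higher one, so the groups overlapped, as they did for Apoe at 421 and 98.6 CPM against 687 and 159 CPM.

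**Figure D5:**
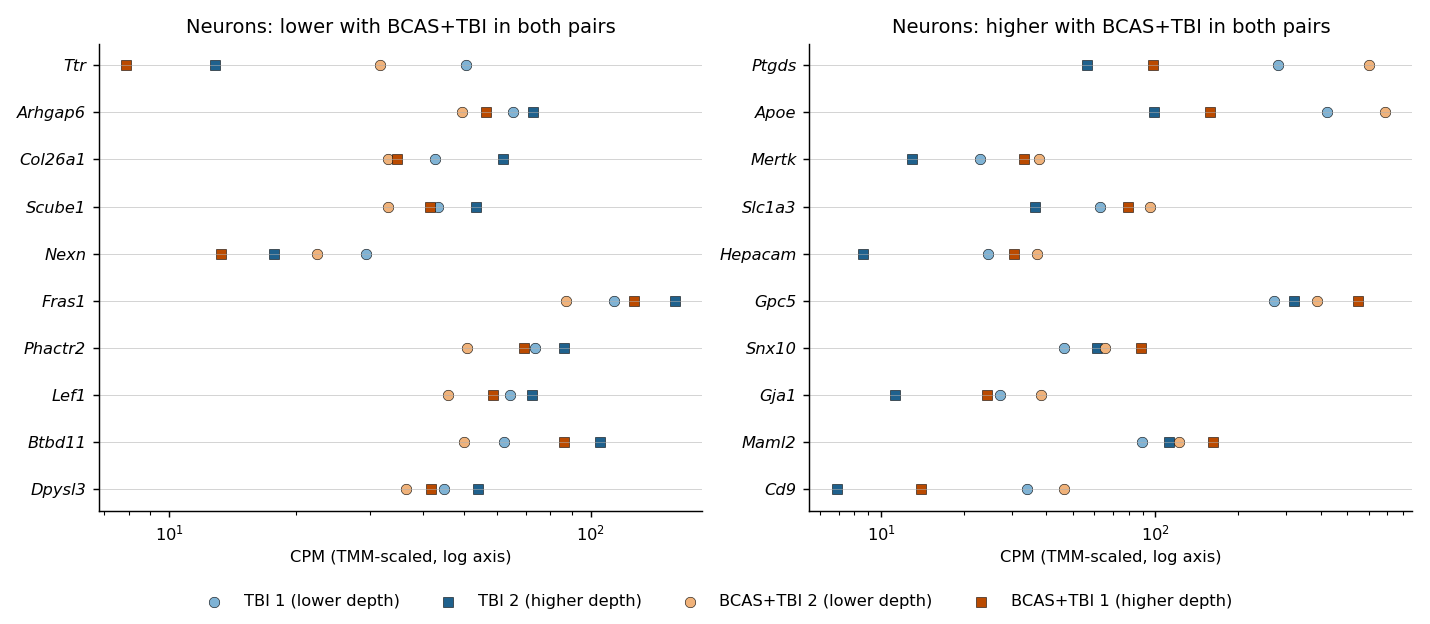
TMM-scaled CPM on a log axis for the 10 named genes per direction in neurons, drawn as for other nuclei. TBI 2 (dark blue squares) is the lowest library for Ptgds, Apoe, Mertk, Slc1a3, Hepacam, Gja1 and Cd9. The groups do not overlap for 6 of the 10 genes on each side.

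Markers of other cell types were also higher in the neuron sums. Of 10 such markers measured in the neuron sums, 7 were higher in both pairs, against 19.9% of all genes tested, 1 (Flt1) was lower and 2 were opposite. Their summed level was 1169 and 603 CPM with TBI and 1264 and 1141 CPM with BCAS+TBI, and none was at 0. TBI 2 stood lowest: Mobp, a myelin gene, was at 47.5 and 11.3 CPM with TBI against 51.5 and 43.8 CPM. Leaving out TBI 1, so that TBI 2 alone stood for its group, passed 142 genes as higher and 4 as lower in neurons by edgeR, among them Mobp at a log2 fold change of 2.05 and adjusted p of 0.00288, Mag at 2.14 and Slc1a3 at 1.28 (adjusted p = 0.0176). The part of RNA from other cell types in the differences of the neuron sums was not tested.

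The 10 genes named as lower in neurons were Ttr, Arhgap6, Col26a1, Scube1, Nexn, Fras1, Phactr2, Lef1, Btbd11 and Dpysl3, with log2 fold changes from -0.68 to -0.30. Col26a1, a collagen, stood at 42.7 and 62.0 CPM with TBI against 33.1 and 34.7 CPM. Lef1, a transcription factor of Wnt signalling that marks thalamic neurons, stood at 64.4 and 72.6 CPM against 45.9 and 58.5 CPM. Dpysl3, which acts in axon growth, stood at 44.9 and 54.1 CPM against 36.3 and 41.7 CPM. For these 3 genes, and for Arhgap6, Scube1 and Phactr2, the groups did not overlap. Ttr, the thyroid hormone carrier made by the choroid plexus, stood at 50.6 and 12.9 CPM against 31.6 and 7.91 CPM, beside the choroid plexus shares given above, whose part in it was not tested.

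Genes of neuronal signalling differed by little. Of 10 potassium channel genes, 8 were lower in both pairs, against 27.9% of all genes tested, 1 higher and 1 opposite, with a median log2 fold change of -0.10 beside -0.02 over all genes tested. Kcnc2, a channel of fast-spiking neurons, stood at 563 and 866 CPM with TBI against 466 and 729 CPM, and Kcna1, an axonal channel, was the member higher in both at 55.98 and 59.9 CPM against 64.4 and 65.0 CPM. Of 8 sodium and calcium channel genes 6 were lower in both pairs and 2 opposite, of 9 GABA-A receptor genes 6 and 3, and of 8 AMPA and NMDA receptor genes 4 and 4, none higher in both. Gria4, an AMPA receptor subunit, stood at 839 and 1383 CPM against 710 and 1212 CPM, and Cacna1c, an L-type calcium channel, at 685 and 998 CPM against 561 and 912 CPM. For Kcnc2, Gria4 and Cacna1c the libraries of a group differed more than the libraries of a pair, and among the members of these 4 lists only Kcna1 had groups that did not overlap. Without TMM scaling the potassium channel count was 5 of 10 and the GABA-A count 3 of 9, and pairing by replicate number left 0 members lower in both pairs in all 4 lists.

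Transmitter and region markers were mixed. Slc17a7, the glutamate vesicle transporter of the cortex, stood at 166 and 162 CPM with TBI against 208 and 166 CPM, while Gad1 and Gad2, which make GABA, were lower in both pairs, Gad2 at 73.1 and 88.5 CPM against 55.5 and 80.3 CPM. Of 8 hippocampal genes 6 were higher in both pairs, against 19.9% of all genes tested. Among them was Zbtb20, a transcription factor of the hippocampus, at 619 and 699 CPM against 748 and 879 CPM and with no overlap. Of 8 thalamic and epithalamic genes 5 were lower in both and 3 opposite, and of 10 cortical layer genes 3 were lower and 7 opposite. Of all genes tested in neurons, 27.9% were lower in both pairs. Of 8 interneuron genes 3 were lower in both pairs and 5 opposite, with Reln, the extracellular signal reelin, at 95.4 and 166 CPM against 80.7 and 126 CPM, and of 10 striatal genes 2 were lower and 8 opposite. Of 8 nuclear long noncoding RNAs 4 were lower in both pairs in neurons, Mirg and Rian of the imprinted Dlk1-Dio3 cluster among them, Mirg at 125 and 155 CPM against 90.4 and 134 CPM. Of 8 hypothalamic and peptidergic genes 2 were lower in both pairs (Avp and Peg10) and 6 opposite, among them Oxt, the related hormone oxytocin, at 1.67 and 2.57 CPM against 4.79 and 0.163 CPM. Avp, the hypothalamic hormone vasopressin, was at 13.2 and 15.3 CPM with TBI against 1.58 and 0.353 CPM with BCAS+TBI, a log2 fold change of -4.88 (SE 1.35). Without TBI the libraries of a group differed widely, at 51.2 and 0.690 CPM in the control libraries and 24.4 and 2.96 CPM in the BCAS libraries. Its 379 and 662 UMIs with TBI lay in 95 and 232 neurons, of which single nuclei held 168 and 97, and its 42 and 13 UMIs with BCAS+TBI lay in 39 and 13 neurons. The part of the dissected region in these values was not tested.

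Of 14 immediate early genes, switched on by recent activity, 3 were higher in both pairs (Dusp1, Junb and Ier2), Fosb was lower and 10 were opposite. Fos stood at 10.0 and 8.58 CPM with TBI against 8.34 and 8.72 CPM. Of 10 genes of the axon injury response 9 passed the filter, of which 3 were lower in both pairs and 6 opposite, and Atf3, the injury-induced transcription factor, was below 1 CPM in all 4 libraries. Of 37 mitochondrially encoded genes 29 passed the filter, of which 19 were higher in both pairs, against 19.9% of all genes tested, and 10 opposite. The summed level of the mitochondrially encoded genes was 6835 and 3603 CPM with TBI against 12907 and 3982 CPM, with BCAS+TBI 2 highest. Of 299 genes matched by name as ribosomal 161 passed the filter, of which 24 were higher in both pairs, 25 lower and 112 opposite. Over all genes tested in neurons, 19.9% were higher in both pairs and 27.9% lower.

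The design also asks whether BCAS changes expression differently with and without TBI, which is the interaction of the surgeries. No gene passed edgeR's test of it at an adjusted p of 0.05, 0 of 23696 in neurons (0%) and 0 of 16229 in other nuclei (0%), with 784 and 536 genes at an unadjusted p under 0.05 and smallest adjusted p-values of 0.554 and 0.0706. DESeq2 passed 2 genes in neurons and 1 in other nuclei. For Cxcl12, BCAS and control libraries gave 103 and 157 CPM against 106 and 132 CPM, a log2 difference of 0.12 beside -0.96 with TBI. For Sema3c this difference was -0.19 without TBI beside -0.95 with it, and for Gpc5 in neurons 0.23 beside 0.64. The interaction was -1.08 (SE 0.25, edgeR adjusted p = 1) for Cxcl12, so a difference between these settings was not shown.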

How the data were processed

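Nuclei from 8 libraries were counted by the authors (Cell Ranger 7.0.0 according to headers in the files), and the deposited values are raw UMI counts per gene and barcode. The submitters' processing notes list Seurat and the build GRCm38 (mm10) with no role, and other settings are not given in the sources used here. All 53390 barcodes were read, and 4922 failed a minimum of 500 UMIs, a minimum of 300 genes or a maximum of 5% for mitochondrial UMIs. The loss was uneven: 867 of 6238 barcodes failed in TBI 1 and 268 of 7882 in TBI 2. In BCAS+TBI 2, 1394 of 6873 failed, and in BCAS+TBI 1, 255 of 6275. Doublets were kept, since automatic calls by Scrublet (scanpy 1.11.5) marked almost none in these 4 libraries, and an alternative removed the 6% with the highest scores. Sums per library and compartment were tested with edgeR 4.0.16 in R 4.3.3: TMM scaling, filterByExpr at min.count 10, quasi-likelihood fits of group plus depth set over all 8 libraries, and Benjamini-Hochberg adjustment over both compartments with a threshold of 0.05. DESeq2 1.42.0 was an alternative. Named genes were the 10 per direction and compartment with the largest smaller-of-both-pairs difference among those with a mean of at least 20 CPM over the 4 libraries; predicted genes were not named. Classes needed at least 3 marker UMIs and 2 times those of every other class. Members and gene lists were chosen with earlier results of these data known. Positions are from the GENCODE annotation of GRCm38, which held 54165 of the 54232 gene identifiers. Intervals cover counting error only. Results of 2 genes of the lists are not reported here.

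The replicate numbers of the labels were checked against the deviations from the group means. Libraries with the same number correlated at -0.85 across genes in neurons and -0.56 in other nuclei. The pairing by depth was set by the rule of this comparison and not by this check. With 2 libraries per group and crossed numbers, the correlations by depth are 0.85 and 0.56, necessarily the same values with opposite sign. The check therefore cannot choose between the pairings.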

Additional observations from a re-analysis of the deposited data

How the results depend on the processing

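The counts of genes past the threshold depended on the setting more than the fold changes did. DESeq2 passed 2 genes in neurons for BCAS+TBI against TBI (Gpc5 and a predicted gene), 2 for the interaction in neurons and 1 in other nuclei. Without the filter on low counts these counts were 8 in neurons and 47 in other nuclei, and 3 and 18 for the interaction. Adjusting p within each compartment passed 1 gene for the interaction in other nuclei. Leaving out each library in turn gave 0 to 146 genes in neurons and 0 to 6 in other nuclei for BCAS+TBI against TBI, and 0 to 12 and 0 to 2 for the interaction, with the highest counts for the direct comparison without TBI 1; the lone sample is then assumed to vary like the other groups. The cause was not tested.

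Genes at 1.5-fold in both pairs numbered 39 in neurons and 296 in other nuclei with a pseudocount of 1 CPM, 3 and 4 with 20 CPM, and 1 and 1 at 2-fold. Other nuclei gave 121 with all deposited barcodes, and neurons gave 5 after thinning to 1500 UMIs and 4 without high-UMI nuclei. Of the log2 fold changes of named genes, 905 values kept their direction and side of the threshold, 14 newly passed it and 1 turned, that of Hba-a2, which ranged from -0.55 without BCAS+TBI 2 to 2.49 without TBI 1. Cxcl12 ranged from -1.16 to -0.45 and Gpc5 from 0.46 to 0.84 over 23 alternatives.

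Pairing by replicate number, as a replicate block, gave 32 genes at 1.5-fold in other nuclei in place of 55. By total UMIs the numbers are crossed between TBI and BCAS+TBI. The crossed pairing is the pairing by depth, which gave 0 genes past the threshold in each compartment. A library left out leaves no pair, and the fit of the 4 libraries alone gives no interaction, so these values were not run. The 2 libraries per group and the UMIs of rare classes limit what could be detected.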

Other observations

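Some genes outside the lists and the naming rule, picked after their values were seen because they were low with BCAS+TBI, are given as values only. In other nuclei Spag17, of the ciliary central pair, stood at 17.7 and 24.3 CPM with TBI and at 4.56 and 12.7 CPM with BCAS+TBI. Daw1, which helps assemble ciliary dynein, stood at 10.4 and 16.1 CPM against 2.48 and 6.69 CPM, and Enkur, a protein of the sperm and ciliary axoneme, at 17.7 and 17.5 CPM against 9.11 and 8.45 CPM. Spag17 (adjusted p = 0.00731) and Daw1 (0.0499) passed edgeR without the filter on low counts and not with it. Since both were picked on their values in these libraries, this adds nothing to those values.

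In the same nuclei, Edn1, the vasoconstrictor endothelin, stood at 22.8 and 15.2 CPM with TBI against 12.8 and 6.34 CPM, and Tek, the angiopoietin receptor of endothelial cells, at 69.1 and 107 CPM against 29.4 and 77.9 CPM. For Tek the higher-depth BCAS+TBI library lay above the lower-depth TBI library. Cd74, the MHC class II chaperone, and Iigp1, an interferon-induced GTPase, were highest in TBI 1. Cd74 stood at 39.3 and 0.919 CPM with TBI against 9.53 and 0.352 CPM, and Iigp1 at 43.8 and 11.02 CPM against 14.1 and 6.34 CPM.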
